A study of Mus musculus with 14 samples.

Results

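Microglia are the resident macrophages of the brain, and in the mouse a small set of genes is used to tell them from macrophages that the bone marrow supplies. The set holds receptors for purines, for a lysophospholipid and for the chemokine fractalkine, as well as a secreted protein, surface proteins of little known function and a transcription factor. The measurements here are of 8 such genes, Fcrls, Tmem119, Olfml3, Cx3cr1, Gpr34, P2ry12, P2ry13 and Sall1, in GFP+CD11b+ myeloid cells sorted as marrow-derived. They were taken by gene symbol and make up 8 of the 19057 genes and 13 of the 45281 probes of the arrays. The question was which of them are gained by marrow-derived cells inside a brain tumor and which stay low.

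Brain metastases (BrM) were modeled by injecting PyMT or EO771 cells, both mouse breast cancer lines, into the brains of C57Bl/6J mice, and cells positive for green fluorescent protein (GFP) and CD11b were sorted about 2 weeks later. The tumor-bearing mice had been lethally irradiated and given stem cells from the marrow of mice that carry GFP under the ubiquitin C promoter, and all mice were labeled as 14 weeks old. The 14 arrays covered 6 conditions, PyMT BrM (n = 4), EO771 BrM (n = 2), spleen (n = 3) and bone marrow (n = 1) of PyMT BrM-bearing mice, and spleen (n = 2) and bone marrow (n = 2) of naïve mice. The naïve tissues stood in for those of EO771 BrM-bearing mice, from which viable cells could not be obtained, and the sources used here do not state whether the naïve mice had also been transplanted. The ubiquitin C promoter is active in most cells, so GFP marks donor origin and the sort selects on origin and CD11b, not on cell type. No array of resident microglia was analysed here, and the levels below cannot be set against those of microglia. In a bulk sample of sorted cells, fewer cells of a type and less RNA per cell cannot be told apart.

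Signals are on a log2 scale, as the authors had normalized them, with a median of 4.06 on every array. To judge which signals stood above the background, each was set against 1287 probes of olfactory receptor genes, taken here as silent in myeloid cells, whose 95th percentile lay between 4.44 and 4.99 on the 14 arrays. A signal above that value on its own array is called above background here. Differences between groups were tested with limma over all 45281 probes, two-sided, and called at an adjusted p under 0.01. Where several probes carried the same symbol, the brightest stands for the gene. Probes differ in how brightly they report the same RNA, so levels are compared between arrays and not between genes.

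Of the 8 genes, 4 rose in the 6 BrM arrays against the 8 spleen and bone marrow arrays, Fcrls, Olfml3, Tmem119 and Cx3cr1, and 0 fell. Over all probes, 3.80% rose and 3.12% fell at the same threshold. The other 4, Gpr34, P2ry12, P2ry13 and Sall1, did not pass the test. The median log2 difference of the 8 genes was 2.42, against -0.01 over all probes. Of the 13 probes, 6 were called higher, namely the 3 of Fcrls and the single probes of Olfml3, Tmem119 and Cx3cr1.

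Fcrls encodes a surface protein of the Fc receptor-like family with a scavenger receptor domain. Its signal was 13.87, 12.49, 13.34 and 12.67 in PyMT BrM and 10.76 and 11.50 in EO771 BrM. In the spleens and bone marrow it lay between 2.30 and 4.17, with a median of 3.83. Every BrM array was above every spleen and bone marrow array, and all 8 spleen and bone marrow arrays read within the background. The ratio therefore has only a lower bound, and Fcrls was at least 305-fold higher in PyMT BrM and at least 96.6-fold higher in EO771 BrM than in the spleen and bone marrow set against each (limma adjusted p = 1.30e-08 and 9.71e-07). The 2 dimmer Fcrls probes also separated the groups, at 8.13 to 11.88 in BrM against 3.05 to 4.73 in spleen and bone marrow for one and 7.44 to 11.57 against 1.49 to 3.51 for the other. Over all BrM the lower bound of the fold was 215 for the brightest probe and 42.7 and 31.9 for the dimmer ones.

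Olfml3 encodes a secreted protein with an olfactomedin domain. PyMT BrM had 11.07, 11.10, 11.36 and 10.78, EO771 BrM had 8.73 and 10.12, and the 8 spleen and bone marrow arrays lay between 3.48 and 4.57 with a median of 4.33. The groups did not overlap, and naïve spleen 2 was the only spleen or bone marrow array above background. Against PyMT spleen and bone marrow, all within the background, Olfml3 was at least 75.5-fold higher in PyMT BrM (limma adjusted p = 2.33e-08). The log2 difference of EO771 BrM from naïve spleen and bone marrow was 5.41 (SE 0.39, adjusted p = 2.33e-06). As 3 of those 4 naïve arrays read within the background, its size is not fixed, and it was 28.9-fold with these 3 set to their background percentile. Without EO771 BrM 1 the log2 difference was 6.11, and without EO771 BrM 2 it was 4.71.

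Tmem119, a transmembrane protein whose antibodies are widely used to stain microglia, followed the same order with a smaller range. Its signal was 10.06, 10.23, 10.60 and 9.98 in PyMT BrM and 8.56 and 9.50 in EO771 BrM, against 4.52 to 5.32 in spleen and bone marrow (median 4.84). All 6 BrM arrays lay above all others, and 5 of the 8 spleen and bone marrow arrays were slightly above background, all but the 3 PyMT spleens. The log2 difference in PyMT BrM was 5.45 (SE 0.26, limma adjusted p = 2.33e-08), or a 37.8-fold rise with the PyMT spleens set to their background percentile. EO771 BrM were 16.7-fold higher than naïve spleen and bone marrow, all above background (log2 difference 4.06, SE 0.31, adjusted p = 4.88e-06). Over the whole array, 3.26% of probes had every BrM array above every other array, and among the 8 genes these were Fcrls, Olfml3 and Tmem119.

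**Figure D1:**
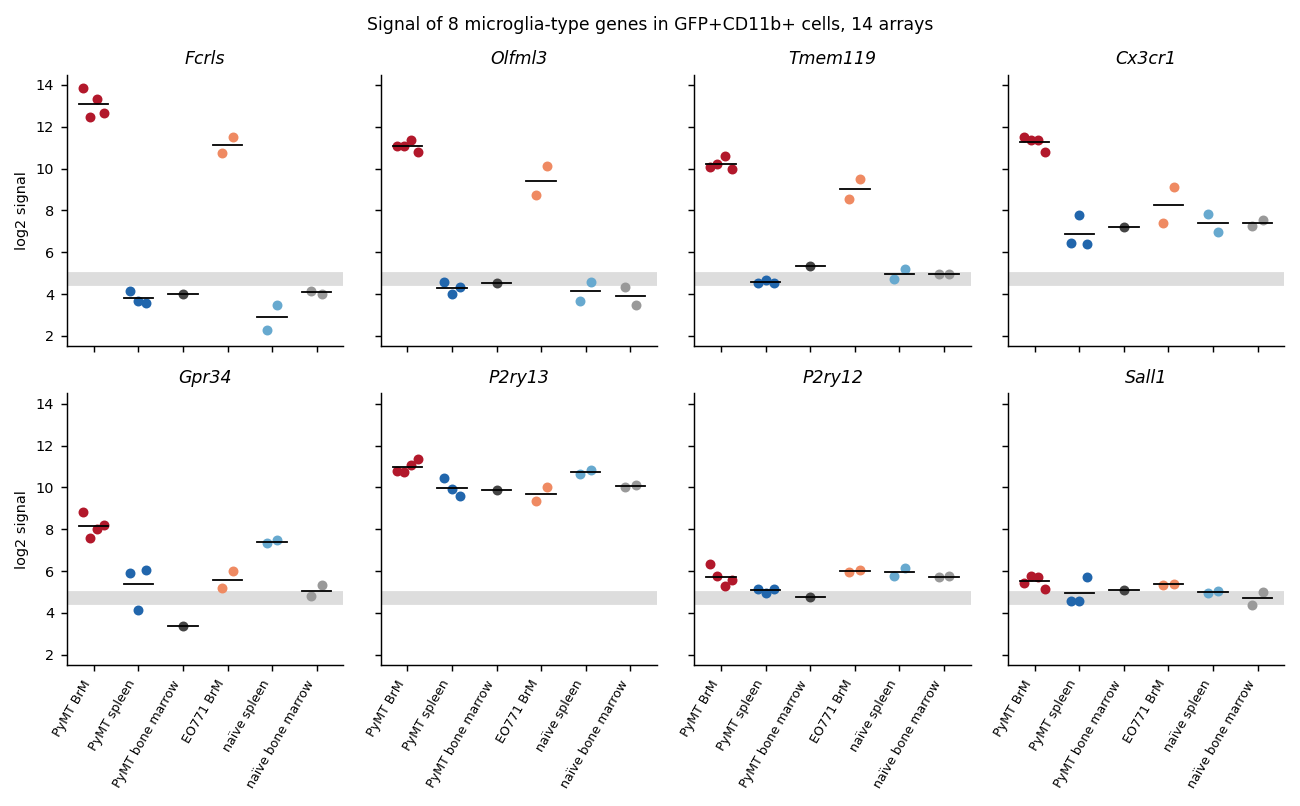
Log2 signal (vertical axis) of the brightest probe of each of the 8 genes on 14 arrays, grouped by condition along the horizontal axis, each BrM condition left of the tissues it was compared with. Points are arrays, horizontal lines are condition means and the gray band spans the 95th percentiles of the olfactory receptor probes, 4.44 to 4.99. Fcrls, Olfml3 and Tmem119 lie far above the band in all 6 BrM arrays and around or below it elsewhere, whereas P2ry12 and Sall1 lie between 4.40 and 6.33 throughout.

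Cx3cr1 encodes the fractalkine receptor, which microglia share with blood monocytes. Its signal was 11.52, 11.38, 11.36 and 10.77 in PyMT BrM and 7.40 and 9.10 in EO771 BrM. Spleen and bone marrow gave 6.38 to 7.81 with a median of 7.22, all 8 above background. The 4 PyMT BrM arrays and EO771 BrM 2 lay above all of these, and EO771 BrM 1 lay among them. Against their own spleen and bone marrow, PyMT BrM were 20.0-fold higher (log2 difference 4.32, SE 0.38, limma adjusted p = 1.19e-05), whereas EO771 BrM differed by 0.85 from naïve spleen and bone marrow (SE 0.47, adjusted p = 0.402), with a 95% confidence interval from -0.16 to 1.86. The EO771 BrM value moved with single arrays and was 1.70 without EO771 BrM 1 and -0.004 without EO771 BrM 2.

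Gpr34 encodes a receptor for lysophosphatidylserine. PyMT BrM gave 8.84, 7.59, 8.01 and 8.18 and EO771 BrM gave 5.21 and 5.98. The spleens of PyMT BrM-bearing mice gave 5.93, 4.13 and 6.04 and the naïve spleens 7.35 and 7.47, while bone marrow gave 3.40 in the PyMT mouse and 4.81 and 5.32 in naïve mice. For this brighter probe the PyMT BrM arrays were above all others, the naïve spleens came next, and both EO771 BrM arrays lay below the naïve spleens. For the other probe 3 PyMT BrM arrays were above all others, and PyMT BrM 2 at 7.29 lay below naïve spleen 2 at 7.58. Gpr34 was higher in PyMT BrM than in PyMT spleen and bone marrow by a log2 difference of 3.28 (SE 0.67, limma adjusted p = 0.00653). PyMT spleen 2 and PyMT bone marrow read within the background, and the rise was 6.89-fold with both set to their background percentile. The difference of EO771 BrM from naïve tissues was -0.64 (SE 0.83, adjusted p = 0.818). Over all BrM the difference was 1.75 (SE 0.67, adjusted p = 0.115), and 1.57 and called when the 6 conditions had equal weight (adjusted p = 0.00664). In the models, the other Gpr34 probe gave 3.48 and -0.41 (adjusted p = 0.00546 and 0.905). The call in the PyMT model was lost when any PyMT BrM array was left out, and likewise without PyMT spleen 2 or the array of PyMT bone marrow, with adjusted p up to 0.0246 without PyMT BrM 1.

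Within the models, 5 of the 8 genes rose in PyMT BrM (Fcrls, Olfml3, Tmem119, Cx3cr1 and Gpr34) and 3 in EO771 BrM (Fcrls, Olfml3 and Tmem119), and 0 fell in either. The shares of all probes called higher were 2.92% in the PyMT comparison and 1.98% in the EO771 comparison. The median log2 difference of the 8 genes was 3.80 in PyMT BrM and 0.68 in EO771 BrM. The difference between the models was itself tested, and 0 of the 8 genes passed, at a background of 0.130% of probes in either direction. This test also takes in differences between the comparison tissues, which came from PyMT BrM-bearing mice for PyMT and from naïve mice for EO771. Gpr34, for example, averaged 5.37 in PyMT spleen and 7.41 in naïve spleen. Cx3cr1 came nearest, with a log2 difference 3.47 larger in the PyMT comparison (SE 0.61, limma adjusted p = 0.0258). It was followed by P2ry13 (1.73, SE 0.42, adjusted p = 0.137) and Gpr34 (3.92, SE 1.07, adjusted p = 0.195). An unadjusted p under 0.05 was found for 6 of the 8 genes and for 8.90% of all probes, with Fcrls, Olfml3 and Tmem119 at 1.61, 1.31 and 1.39. With 2 EO771 BrM arrays, the standard errors of this test were large, up to 1.07 for Gpr34.

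**Figure D2:**
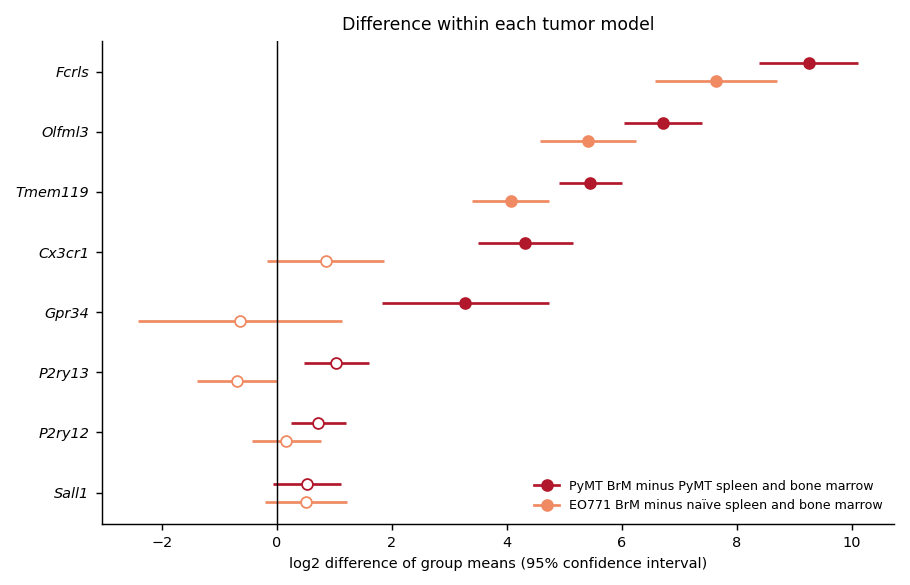
Log2 difference of group means (horizontal axis) for each of the 8 genes, with 95% confidence intervals from limma, in PyMT BrM against PyMT spleen and bone marrow (dark red, above) and EO771 BrM against naïve spleen and bone marrow (orange, below). Filled points were called at an adjusted p under 0.01 and open points were not. The 3 upper genes are filled in both models, and Cx3cr1 and Gpr34 only for PyMT BrM, where they are 4.32 and 3.28 against 0.85 and -0.64 for EO771 BrM.

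The tumors were also compared directly. In PyMT BrM against EO771 BrM, all 4 PyMT BrM arrays exceeded both EO771 BrM arrays for Fcrls, Olfml3, Tmem119, Cx3cr1, Gpr34 and P2ry13, as they did for 18.8% of all probes. Cx3cr1 was the only gene called, 8.04-fold higher in PyMT BrM (log2 difference 3.01, SE 0.50, limma adjusted p = 0.00620), where 0.583% of all probes were called higher. The other 5 had log2 differences between 1.19 (Tmem119, SE 0.29) and 2.56 (Gpr34, SE 0.51) and adjusted p between 0.0139 and 0.0354. The Cx3cr1 call was lost without any PyMT BrM array (adjusted p up to 0.0183) and without EO771 BrM 1 (log2 difference 2.15, adjusted p = 0.104), and kept without EO771 BrM 2 (3.86, adjusted p = 0.00937). EO771 BrM 2 had the higher signal of the 2 EO771 BrM arrays for all 6 genes. The summed signal of 8 inflammatory monocyte genes was lower in PyMT BrM, at 12.70 to 13.95, than in EO771 BrM, at 14.66 to 14.79, with Ly6c1 and Vcan called lower. The summed signal of 8 carcinoma genes was higher in PyMT BrM, at 8.60 to 9.84, than in EO771 BrM, at 8.29 to 8.47, with Krt18 and Cdh1 called higher, and that of 11 brain cell genes was 9.45 to 9.95 in PyMT BrM and 9.08 to 9.14 in EO771 BrM, with 0 called. The part of these cells in the differences was not tested. The tumor line and any other difference between the sets of mice cannot be told apart.

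P2ry13 encodes a receptor for adenosine diphosphate and was bright in every condition. Its signal was 10.78, 10.76, 11.08 and 11.37 in PyMT BrM and 9.37 and 10.04 in EO771 BrM, and 9.57 to 10.85 in spleen and bone marrow (median 10.06). The groups overlapped, and EO771 BrM 1 was the lowest of all 14 arrays. The log2 difference was 1.04 in PyMT BrM (SE 0.27, limma adjusted p = 0.0226) and -0.69 in EO771 BrM (SE 0.33, adjusted p = 0.289). When only the 17348 probes brighter than the olfactory receptor percentile were tested, the rise in PyMT BrM was called (adjusted p = 0.00771), and over the other settings at the same threshold its adjusted p was between 0.0115 and 0.0717.

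P2ry12 encodes the adenosine diphosphate receptor through which microglial processes move toward injury, and which platelets also carry. Its brighter probe gave 6.33, 5.76, 5.29 and 5.55 in PyMT BrM and 5.94 and 6.07 in EO771 BrM, against 4.78 to 6.13 in spleen and bone marrow (median 5.44). All 14 signals were above background but by at most 1.69, and BrM arrays lay among the others except for PyMT BrM 1, the highest of all. The log2 difference over all BrM was 0.40 (95% confidence interval -0.10 to 0.90, limma adjusted p = 0.359). The other P2ry12 probe read 2.63 to 4.25, within the background on every array.

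Sall1, a zinc finger transcription factor needed for the microglial program in mice, was also near the background. The brighter of its probes gave 5.43, 5.76, 5.72 and 5.15 in PyMT BrM and 5.32 and 5.40 in EO771 BrM, against 4.40 to 5.73 in spleen and bone marrow (median 4.97). The 6 BrM arrays were all above background, as were 5 of the other 8, and the ranges overlapped through PyMT spleen 3 at 5.73. Sall1 had a log2 difference of 0.54 (95% confidence interval 0.11 to 0.98, limma adjusted p = 0.109), and its other probe read within the background on all 14 arrays with a difference of -0.16. In PyMT BrM alone, P2ry12 had a difference of 0.72 (95% confidence interval 0.24 to 1.21, adjusted p = 0.0551) and Sall1 one of 0.53 (-0.06 to 1.11, adjusted p = 0.262).

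In spleen against bone marrow, 0 of the 8 genes passed limma's test, as did 0.00883% of all probes in either direction, and 0 had an unadjusted p under 0.05, against 13.3% of all probes. The largest difference was that of Gpr34, 1.68 higher in spleen on the log2 scale (SE 0.83, adjusted p = 0.411), or 1.69 with the mouse set as a covariate, an alternative chosen after seeing the data (adjusted p = 0.384). For the brighter Gpr34 probe, every spleen exceeded every bone marrow array within the PyMT set and within the naïve set. PyMT spleen 2 and PyMT bone marrow were both within the background, and the other probe put them in the reverse order (3.38 and 3.88). The share of all probes with such an order was not counted. Set against spleen alone, BrM were higher for 4 genes, the same 4 as in the pooled comparison (2.57% of all probes), and against bone marrow alone for 3, Fcrls, Olfml3 and Tmem119 (3.24% of all probes). Cx3cr1 had 3.18 against spleen (limma adjusted p = 0.00376) and 2.92 against bone marrow (adjusted p = 0.0160). Its call against spleen was lost without PyMT BrM 1, 2 or 3, PyMT spleen 1 or 3, or naïve spleen 2 (adjusted p up to 0.0141), and it was called against bone marrow without EO771 BrM 1 (adjusted p = 0.000425).

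P2ry12 and P2ry13 lie 5389 bases apart in a cluster of receptor genes, which made it possible to compare genes by position. In the RefSeq annotation of GRCm38.p6, P2ry13 is at chr3:59207892-59210882, P2ry12 at chr3:59216271-59262985, Gpr171, which encodes a G protein-coupled receptor, at chr3:59096448-59101821 and P2ry14, which encodes a receptor for UDP-sugars, at chr3:59114623-59153492. All 4 lie within the span of Med12l, a Mediator subunit gene, at chr3:59005419-59318446. Both neighbours were called in the pooled comparison. Gpr171 had 10.23, 9.67, 9.83 and 10.92 in PyMT BrM and 9.40 and 9.80 in EO771 BrM, against 4.83 to 8.04 in spleen and bone marrow, and P2ry14 had 10.62, 11.21, 10.79 and 11.79 in PyMT BrM and 10.17 and 10.70 in EO771 BrM, against 7.02 to 9.35. For both genes all 6 BrM arrays were above all others. The log2 differences were 3.55 for Gpr171 (SE 0.54, limma adjusted p = 0.000286) and 2.41 for P2ry14 (SE 0.38, adjusted p = 0.000439), next to 0.40 for P2ry12 and 0.39 for P2ry13, and differences between genes were not tested.

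**Figure D3:**
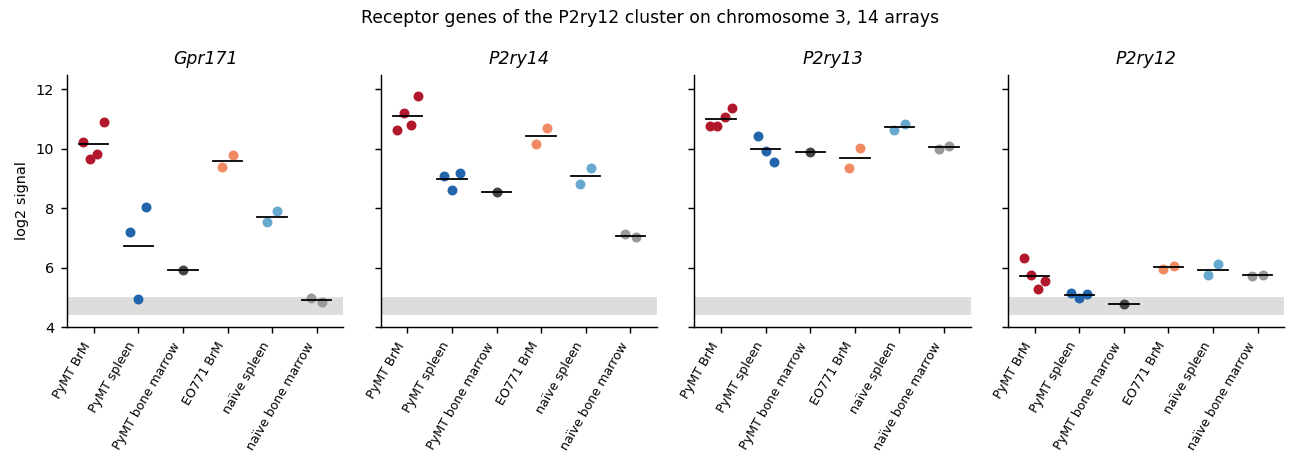
Log2 signal (vertical axis) of the 4 measured receptor genes of the chromosome 3 cluster on 14 arrays, in the order of their positions, with conditions along the horizontal axis, condition means as lines and the background band from 4.44 to 4.99. Gpr171 and P2ry14 are higher in the 6 BrM arrays than in any spleen or bone marrow array, P2ry13 is high throughout and P2ry12 is low throughout.

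Across the P2Y receptors, P2X receptors and neighbouring receptor genes, 5 of 10 measured genes rose and 1 fell in the pooled comparison. P2ry6, the receptor for uridine diphosphate that is tied to phagocytosis by microglia, rose by 3.31 on the log2 scale (SE 0.21, limma adjusted p = 4.95e-08), Gpr171 and P2ry14 as above, and P2rx4 and P2rx7, which encode ion channels opened by ATP, by 1.93 and 1.80 (adjusted p = 0.000346 and 2.38e-05). P2ry1, another adenosine diphosphate receptor, fell by 1.76 (SE 0.37, adjusted p = 0.00431), a call lost without PyMT BrM 1, 2 or 3. P2ry6 and P2rx7 were also called in each model alone.

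The sequence before the start of each gene is shown for 2 genes that rose, Fcrls and Olfml3, and 2 that were not called, P2ry13 and P2ry12, so that their promoters can be compared. Of the 8 genes, 6 had an entry in the RefSeq promoter table of GRCm38.p6. Each window is the 250 bases before the annotated start, on the minus strand, at chr3:87263525-87263774 for Fcrls, chr3:103738002-103738251 for Olfml3, chr3:59210883-59211132 for P2ry13 and chr3:59262986-59263235 for P2ry12. Capitals mark GAGGAA, the core letters of the PU-box read by the myeloid transcription factor PU.1 (gene Spi1), searched on both strands.
Fcrls: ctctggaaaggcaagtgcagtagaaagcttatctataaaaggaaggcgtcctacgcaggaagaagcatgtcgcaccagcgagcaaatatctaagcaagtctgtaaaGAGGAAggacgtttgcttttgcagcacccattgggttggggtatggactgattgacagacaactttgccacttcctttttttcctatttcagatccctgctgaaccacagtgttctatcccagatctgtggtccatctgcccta
Olfml3: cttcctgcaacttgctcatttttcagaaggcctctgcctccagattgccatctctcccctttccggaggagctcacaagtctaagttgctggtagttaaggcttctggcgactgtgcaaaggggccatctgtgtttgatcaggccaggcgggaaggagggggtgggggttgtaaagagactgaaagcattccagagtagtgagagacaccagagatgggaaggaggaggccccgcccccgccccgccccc
P2ry13: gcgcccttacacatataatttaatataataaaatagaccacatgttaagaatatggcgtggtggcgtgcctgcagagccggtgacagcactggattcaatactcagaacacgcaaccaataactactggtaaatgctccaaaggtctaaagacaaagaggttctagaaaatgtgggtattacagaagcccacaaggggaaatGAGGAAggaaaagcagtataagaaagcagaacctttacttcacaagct
P2ry12: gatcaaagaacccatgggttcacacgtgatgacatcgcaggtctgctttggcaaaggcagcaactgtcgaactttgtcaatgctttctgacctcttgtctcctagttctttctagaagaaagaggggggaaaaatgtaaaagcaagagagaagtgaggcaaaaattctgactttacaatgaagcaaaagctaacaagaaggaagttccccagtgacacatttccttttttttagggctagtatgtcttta
The letters GAGGAA occurred in 2 of the 6 genes with an entry, 139 to 144 bases before the start of Fcrls and 43 to 48 bases before that of P2ry13, and 23.3% of 32851 such windows held them on either strand. Of these 2, Fcrls was called in the pooled comparison and P2ry13 was not, while Olfml3, P2ry12, Sall1 and Cx3cr1 had no match. A link between these letters and the signals was not tested. The Fcrls start used here lies inside the annotated span of the gene, chr3:87250736-87263765. Most of the Fcrls window, with its match, therefore lies within that span and not before it. Spi1 itself was measured at 7.89 to 8.72 in BrM and 7.65 to 9.69 in spleen and bone marrow (log2 difference -0.50, limma adjusted p = 0.356).

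Other genes used for microglia also moved in part. Of 34 measured, 14 rose, 2 fell and 18 were not called in the pooled comparison, with a median log2 difference of 1.14. With single arrays left out, 10 to 14 rose and 2 fell. The largest rises were those of Trem2, a lipid-sensing receptor (4.94, SE 0.35, limma adjusted p = 1.49e-07), Rnase4 (3.95, SE 0.21, adjusted p = 5.59e-09) and Ang (3.37, SE 0.29, adjusted p = 1.18e-06), a pair of secreted ribonucleases. Those that fell were Csf3r, the receptor for granulocyte colony-stimulating factor, with -2.95 (SE 0.41, adjusted p = 0.000127), and Selplg, a selectin ligand, with -0.97 (SE 0.19, adjusted p = 0.00237). Siglech, a lectin that marks microglia and plasmacytoid dendritic cells, had 3.79 to 5.56 in BrM and 4.41 to 6.82 elsewhere (adjusted p = 0.128), and Slc2a5, the fructose transporter, and Adgrg1, an adhesion receptor, read within the background on all 14 arrays. By model, 13 rose and 1 fell in PyMT BrM, and 4 rose and 1 fell in EO771 BrM, with 4 and 2 BrM arrays. Over all probes, 2.92% rose and 1.87% fell in the PyMT comparison, and 1.98% rose and 1.14% fell in the EO771 comparison. In the test of the difference between models 0 of 34 passed, at a background of 0.130% of probes.

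Among 13 measured transcription factors and signaling genes of the microglial program, Egr1, an immediate-early factor, was the only one called, with a rise of 3.55 (SE 0.45, limma adjusted p = 6.54e-05). Of the 3 genes around the ligand of Cx3cr1, the fractalkine gene Cx3cl1 rose by 1.86 (SE 0.39, adjusted p = 0.00371) and Adam17, a protease that sheds it, by 1.10 (SE 0.17, adjusted p = 0.000414). The Cx3cl1 signal was close to background, 4.52 to 6.14 in BrM and 2.35 to 4.65 in spleen and bone marrow, and without PyMT BrM 1, 2 or 4 the list had 1 call. Relatives of Fcrls and Olfml3 moved in both directions. In the Fc receptor-like family, Fcrla and Fcrl1, both known from B cells, fell by 2.91 and 1.61 (adjusted p = 0.00533 and 0.00341), with 0 of 3 called without PyMT BrM 2 and 1 without any other BrM array, PyMT spleen 3 or naïve spleen 2. Of 7 olfactomedin genes, Olfm1 rose by 2.34 (adjusted p = 7.25e-07), and Olfm4, a neutrophil granule protein, and Olfml2b fell by 3.89 and 3.15 (adjusted p = 0.00141 and 0.000695), with Olfm4 within the background on all 6 BrM arrays, so that its true difference is not fixed.

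The sorted cells differed between tissues in more than these genes, as shown by markers of the cell types the gate could hold. Of 12 neutrophil genes, 0 rose and 11 fell in BrM, with a median of -4.31, and their summed signal was 12.49 to 14.40 in BrM and 16.49 to 17.22 in spleen and bone marrow. Genes of border-associated macrophages, the macrophages of the meninges and brain vessels, moved with the gained genes, as 6 of 11 rose, led by Folr2 (3.74, limma adjusted p = 0.000196), Siglec1 (3.36, 9.10e-07) and Ms4a7 (3.24, 6.00e-05), although Mrc1 and Lyve1 were not called and Cd163 had -3.14 (adjusted p = 0.0143). With single arrays left out, 4 to 6 of the 11 rose, and without PyMT BrM 1, 1 of them fell. Their summed signal was 14.48 to 14.93 in BrM and 11.33 to 13.91 elsewhere. Patrolling monocyte genes, a population with high Cx3cr1, had a median of -0.63 with 1 of 11 higher (Cebpb) and 2 lower (Treml4 and Pglyrp1), and without any array other than PyMT BrM 3 the single rise was not called, while 1 of the falls was lost without PyMT BrM 1, 2 or 4, either EO771 BrM array, PyMT spleen 1 or 3, or naïve spleen 2. Of 8 inflammatory monocyte genes, 3 rose (Fn1, Ccr2 and F13a1) and 1 fell (Hp; 2 without PyMT spleen 2 or PyMT bone marrow), of 11 dendritic cell genes 1 rose (Bst2), and of 5 erythroid genes 3 fell (Slc4a1, Hba-a1 and Alas2). Platelet genes, whose cells carry P2ry12, had 1 of 8 higher (Pf4, also a listed border-associated macrophage gene) and 1 lower (Gp1bb). Their median log2 difference was -1.49 in the pooled comparison, -1.02 against spleen alone and -3.19 against bone marrow alone. The summed signal of these 8 genes, with Pf4 included, was 8.12 to 11.57 in BrM and 7.31 to 11.25 elsewhere. The rise was lost without PyMT BrM 1 or 2, either EO771 BrM array or any spleen array, and the number of falls was 0 without any PyMT BrM array, EO771 BrM 2, PyMT spleen 2 or either naïve bone marrow array, 3 without naïve spleen 2, and 2 without naïve spleen 1 or PyMT spleen 1. Mast cell genes, whose cells carry Gpr34, had 0 of 8 higher and 2 lower (Hdc and Kit), with 9.51 to 11.57 in BrM and 12.78 to 13.79 elsewhere, and 0 of 10 reference genes were called. Their part in the rises of Fcrls, Olfml3, Tmem119 and Cx3cr1 was not tested.

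Cells from outside the marrow were looked for in the same way. Of 11 genes of neurons, astrocytes and oligodendrocytes, 1 rose (Aldoc, 2.18, limma adjusted p = 0.00237) and 1 fell (Mbp, -1.07, 0.00112), Snap25, Syt1 and Olig2 read within the background on all 14 arrays, and the summed signal was 9.08 to 9.95 in BrM and 9.47 to 10.26 elsewhere. Their mean log2 signal was 4.76 to 5.33 in PyMT BrM and 4.49 to 4.55 in EO771 BrM, against 4.17 to 4.70 elsewhere. Of 12 fibroblast and endothelial genes, 5 rose, led by Sparc (3.46, adjusted p = 0.000196), Col4a1 (2.82, 0.000371) and Pdgfra (2.68, 0.00136, within the background in all spleen and bone marrow arrays), and Col3a1 read within the background on all arrays, with summed signals of 9.09 to 10.44 in BrM and 8.02 to 9.84 elsewhere. Of 8 carcinoma genes, Krt8 and Cdh1 rose (3.10 and 1.46, adjusted p = 1.12e-05 and 0.00401) and Epcam and Krt19 read within the background on all arrays, with summed signals of 8.29 to 9.84 in BrM and 7.16 to 7.72 elsewhere. Without an EO771 BrM array 3 carcinoma genes were called, and without PyMT BrM 1, 3 or 4, 1 was. The part of these cells in the results was not tested.

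**Figure D4:**
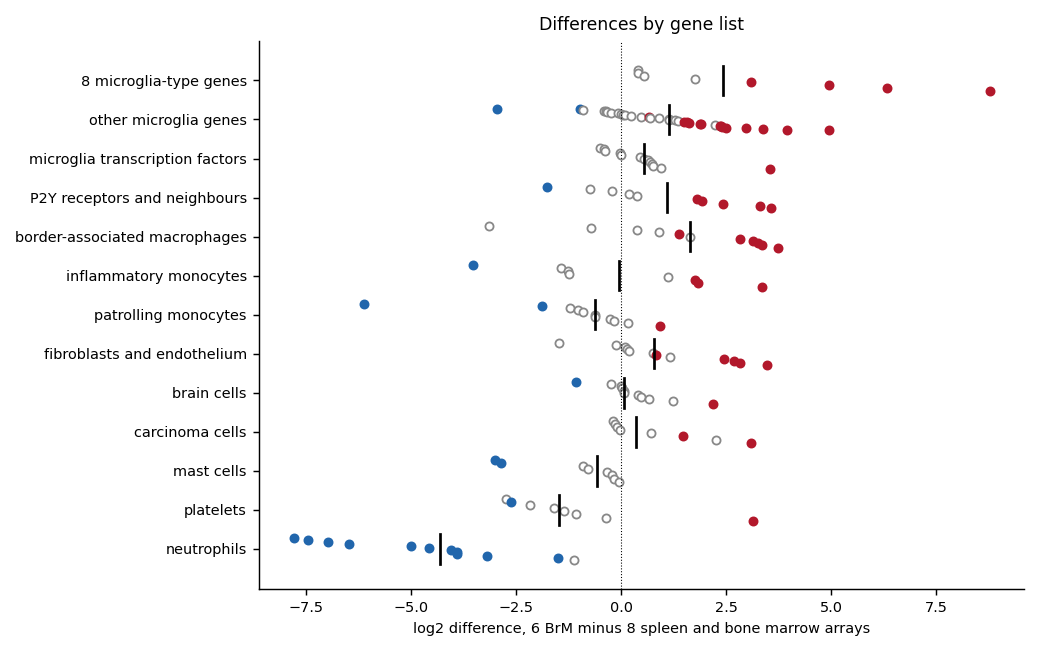
Log2 differences (horizontal axis) of 6 BrM minus 8 spleen and bone marrow arrays for the measured genes of 13 lists, 1 list per row, with the 8 genes in the top row. Red and blue points were called higher and lower at a limma adjusted p under 0.01, open points were not called, and vertical bars are list medians. Fcrls lies farthest to the right, at a fitted difference whose size is not fixed because all 8 spleen and bone marrow arrays read within the background, and neutrophil genes have a median of -4.31.

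The genes most like each of the 5 whose condition means spanned over 2 on the log2 scale were found by the root mean square difference over the 14 arrays, after subtracting each probe's own mean, among 19049 other genes. For Fcrls these were Dab2, an endocytic adaptor (1.23), the monocyte chemokine Ccl12 (1.29) and the arginase Arg1 (1.48), and for Olfml3 they were Prune2 (0.75), Dab2 (0.80) and the cholesterol hydroxylase Ch25h (1.01). Tmem119 was nearest to Prune2 (0.43), the podosome scaffold Sh3pxd2b (0.44) and Rai14 (0.57). Cx3cr1 was nearest to Ntpcr (0.66), the metalloproteinase Mmp2 (0.71) and Klrb1b (0.72), and Gpr34 to Sh3d21 (0.73), Tmem176b (0.75) and the iron regulator Hfe (0.75). Among the 8 genes themselves, Tmem119 and Olfml3 were the closest pair of those that rose (0.78), and Fcrls was closer to Olfml3 (1.31) than to Tmem119 (1.98) or Cx3cr1 (2.93), distances that grow with the size of the span as well as with its shape.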

How the data were processed

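RNA of GFP+CD11b+ cells was hybridized to 14 arrays of the Illumina MouseWG-6 v2 type. The methods name 1 more PyMT spleen than the 3 that the labels give, and only those 3 were used. The deposited log2 values had been quantile normalized by the authors, as the values themselves show, since the arrays, once sorted, agreed to within 0.00192. The submitters' processing notes name GenomeStudio 2011.1 and limma (no version). Background correction is not given in the sources used here, and base 2 was inferred from how far the values range. Of 45281 probes, 34885 had 1 gene symbol, 18 several and 10378 none. Quantile normalization assumes like distributions, and signals near the background compress differences. For arrays, precision is limited by their number.

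Differences were computed from the deposited values with R 4.3.3 and limma 3.58.1 (lmFit and eBayes), p-values adjusted over every probe by Benjamini-Hochberg, calls at 0.01 and no filter. The pooled comparison used 2 groups, the models 4, spleen or bone marrow alone 3, and PyMT BrM against EO771 BrM 6. The fits were run on simulated data as a check of the code only, with independent normal noise and no arrays that share a mouse. A lower bound of a fold was set where all comparison arrays read within the background, with the higher of the signal and the 95th percentile of the olfactory receptor probes in place of each. Summed signals are log2 of the sum of linear signals over a list. Named were all 8 genes with every probe, of each of 18 further lists the 3 largest called rises and 2 largest called falls, and the 3 nearest genes to each of the 8 that spanned over 2 on the log2 scale, while members not called were named after their values were seen. The 8 genes and the lists were chosen with earlier results of these data known. Of 204 listed genes, 19 had no probe of their symbol and were not used here.

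Mouse codes in the sample titles were shared by BrM and spleen arrays of 3 PyMT BrM-bearing mice, which gives a pairing by animal. The PyMT bone marrow array has the code of 1 of these mice, and naïve spleen 1 shares a stem with both naïve bone marrow arrays, so tissues of the same animal may stand on both sides of spleen against bone marrow. Deviations of the BrM and spleen pairs from their group means correlated at -0.04, -0.00 and -0.02. Title numbers did not follow these codes. The codes of the 2 naïve bone marrow arrays differ by a letter and 1 EO771 BrM code holds a pair of numbers, so some arrays may be pooled or technical replicates, and p-values measure the spread between arrays only. The naïve bone marrow arrays correlated at 0.968, with an SD of 0.58 between them, close to the 0.962 and 0.63 of the naïve spleens, and each was counted as a sample.

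Alternatives were other filters, variance models and thresholds, the methods' t-test (adjusted likewise), blocks, the mouse set as a covariate, equal weight of conditions, averaged probes, averaged naïve bone marrow arrays, centring on reference genes and leaving out each array in turn. Figures were drawn with Python 3.11.15 and matplotlib 3.10.9.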

Additional observations from a re-analysis of the deposited data

Results flagged for a closer look

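Of 52 groups of 4 to 8 arrays looked at, 2 had an array far from the others, and chance gives about 1 in 20. For Fcrls in the 8 spleen and bone marrow arrays, naïve spleen 1 was lowest at 2.30, the next array was at 3.49 and the highest at 4.17, so that the gap was 0.634 of the range. All 8 signals were within the background. For Tmem119 in the 5 spleens, naïve spleen 2 was highest at 5.21, the next at 4.71 and the lowest at 4.52, a gap of 0.719 of the range.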

How the results depend on the processing

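In the pooled comparison the same 4 genes were called under each of 13 other settings and without any 1 of the 14 arrays, with fitted log2 differences of 4.67 to 5.21 for Tmem119 and 2.54 to 3.66 for Cx3cr1. Those of Fcrls and Olfml3 are not given, since all 8 and 7 of the 8 spleen and bone marrow arrays read within the background. With the 6 conditions at equal weight Gpr34 was called in addition, which made 5 genes (1.57, adjusted p = 0.00664, where its range over all settings was 0.00664 to 0.252). No direction of the 8 genes turned. Centring on reference genes moved the median of all probes by -0.17.

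A replicate block by mouse code pairs the BrM and spleen arrays of 3 mice. It also puts the PyMT bone marrow array with 1 of these mice, and naïve spleen 1 with both naïve bone marrow arrays. With this block, 4 genes were called in the pooled comparison. The block changed no call of the 8 genes in any comparison it was run for. Of the other lists, 5 border-associated macrophage genes, 3 carcinoma genes and 0 patrolling monocyte genes were then called higher, in place of 6, 2 and 1. A block by title number within the mouse set also gave 4.

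At a threshold of 0.05, 5 genes were called against bone marrow alone (11.6% of all probes), 6 in the PyMT model (10.8%), 1 in the test of the difference between models (Cx3cr1; 0.342%) and 6 in PyMT BrM against EO771 BrM (6.02%). In the last comparison 4 were called with a mean-variance trend (3.14%) and 4 with the filter at the olfactory receptor percentile (8.83% of those kept; Fcrls, P2ry13, Gpr34 and Cx3cr1 in each), which tests 17348 probes and also called P2ry13 in the PyMT model and Cx3cr1 against bone marrow alone, and 0 to 1 when an array was left out. Leaving out each array gave 3 to 4 calls against bone marrow, 3 to 4 against spleen, 4 to 5 in the PyMT model, 3 in the EO771 model and 0 both for the difference between models and for spleen against bone marrow. Signals of P2ry12 and Sall1 near the background limit what could be detected.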
